A study of Caenorhabditis elegans with 6 samples.

Results

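RNA was pulled down with tagged ribosomes of neurons from lysates of whole L4 worms. In it, 52 genes were listed with reads in wild type and at 0 in all libraries of alg-2(ok304). The genes were chosen by their levels in the deposited table, which holds 5739 genes. A gene was taken when its fitted reads summed to 20 or more over the 3 wild-type libraries and to 0 over the 3 alg-2(ok304) libraries, and the col genes, which encode cuticle collagens, were left out. The 52 genes were 0.918% of the 5666 genes outside the col genes and 6.91% of the 753 such genes with a wild-type sum of 20 or more. The difference between the groups is therefore what defined the genes, and it is given as a description without a test.

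The study asked how loss of alg-2 changes the mRNAs on neuronal ribosomes. Samples were 3 libraries from worms carrying the deletion allele alg-2(ok304) and 3 from worms wild type for alg-2, each from a large pooled population at the L4 stage. Every strain, wild type included, carried a single-copy transgene on chromosome IV that expresses an epitope-tagged RPL-18, a protein of the ribosome, from the pan-neuronal rgef-1 promoter, together with a nuclear HIS-58::GFP marker. Tagged ribosomes were pulled from lysates of whole animals with FLAG beads, and the bound RNA was sequenced from low input. In the strain list of the study the tag is written as HA in the mutant and as FLAG in wild type, and the headers of the mutant columns name a knockout of alg-1, whereas the sample labels give alg-2(ok304).

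ALG-1 and ALG-2 are the Argonaute proteins that carry most miRNAs in somatic cells of C. elegans. An Argonaute guided by a miRNA pairs with target mRNAs, usually in the 3′ untranslated region, and lowers their translation and stability. A neuronal polysome profile reads which mRNAs sit on ribosomes, so that it records mRNA abundance and ribosome loading together.

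The values of the table were fitted reads, not counts. Within a group, the ratio between the columns of any 2 libraries was the same for every gene, so each column holds a level fitted for the group times a factor of the library. Relative to library 1, the factors of the others were 1.17 and 2.24 in alg-2(ok304), against 1.40 and 1.52 in wild type. A spread between replicates cannot be computed from such columns, and a level cannot be assigned to 1 library or to all 3. No value below carries an error for that reason, and no test was run. Outside ribosomal RNA, the fitted reads summed to 3147553 over the alg-2(ok304) libraries and to 956037 over the wild-type libraries, a ratio of 3.29, whereas over all genes this ratio was 0.462, with ribosomal RNA at 85.1% of the fitted reads in alg-2(ok304) and 97.9% in wild type. A wild-type sum of 20 therefore corresponds to 65.8 fitted reads in alg-2(ok304) by the totals outside ribosomal RNA and to 9.24 by the totals of all genes. The targeted gene, alg-2, had 11.1 fitted reads in alg-2(ok304) and 16.6 in wild type, and since reads outside the deleted stretch can be counted, this level does not check the genotype. alg-1 was not among the genes listed, and rpl-18, the gene of the tagged protein, had 317 fitted reads in alg-2(ok304), against 66.9 in wild type. Of 20 neuronal markers 7 were listed, as were 15 of 15 body wall muscle, 7 of 10 hypodermal, 8 of 10 intestinal, 3 of 10 germline and 10 of 10 sperm markers. Summed over the lists, the neuronal markers had 80.4 fitted reads in alg-2(ok304) and 11.7 in wild type, the body wall muscle markers 6664 and 3800, the intestinal markers 792 and 169, and the germline markers 14.2 and 4.09. The hypodermal markers had more fitted reads in wild type, with 398 in alg-2(ok304) against 698. Of 7 markers of touch receptor neurons 2 were listed, with 27.5 fitted reads in alg-2(ok304) against 60.9 in wild type. Of that wild-type sum, 59.0 came from mec-7, a gene taken for its wild-type reads and its 0 in alg-2(ok304). The other marker, mec-17, had 27.5 in alg-2(ok304) and 1.85 in wild type. The higher wild-type sum thus follows from the choice of genes and does not compare these neurons between the groups. The sperm markers stood at 60.1 in alg-2(ok304) and 59.8 in wild type. The rgef-1 gene was not among the genes listed, and the part of other tissues in the levels below was not tested.

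The wild-type sums of the 52 genes ran from 20.0 to 115.1 fitted reads with a median of 30.7. Scaled to the wild-type total outside ribosomal RNA, this is 20.9 to 120 CPM with a median of 32.1 CPM, and the genes together held 0.226% of that total. These are pooled animals, so that fewer cells with an mRNA and less of it per cell cannot be told apart. In the wild-type range of 20 to 30 fitted reads, 25 of 175 genes were listed at 0 in alg-2(ok304), or 14.3%. The share was 7.11% between 30 and 50 (14 of 197 genes), 6.56% between 50 and 100 (12 of 183 genes) and 0.505% at 100 or more (1 of 198 genes). The shares were lower at higher wild-type levels, and 177 genes outside the col genes lay above the highest of the 52.

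**Figure D1:**
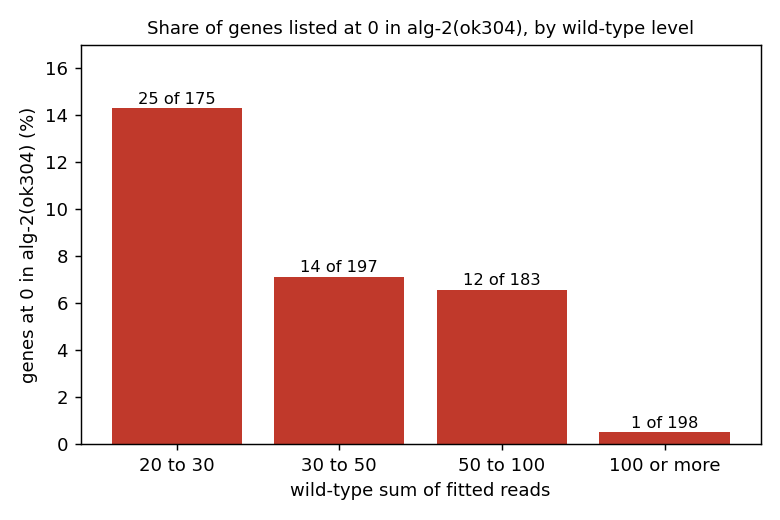
Share of genes listed at 0 in alg-2(ok304) among genes outside the col genes, by their wild-type sum of fitted reads on the x axis, with the number of genes over each bar. The share was 14.3% at 20 to 30 fitted reads and 0.505% at 100 or more.

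Another 524 genes had a wild-type sum within the same range, 20 to 115.1 fitted reads, and were above 0 in alg-2(ok304). Their alg-2(ok304) sums ran from 0.870 to 1249 with a median of 60.8. Of these genes, 12 stood under 1 fitted read in alg-2(ok304), 53 between 1 and 5, 93 between 5 and 20, and 366 at 20 or more. The smallest alg-2(ok304) sum above 0 in the table was 0.853. Whether a value of 0 stands for an absent, a low or an unsampled mRNA was not tested and cannot be told from fitted values. At 0 in both groups were 953 genes, among them genes that every cell uses. Examples were the histidyl-tRNA synthetase gene hars-1, the small nuclear ribonucleoprotein gene snr-1 and the proteasome gene pas-7. The zinc-finger gene ztf-6 (0.870 fitted reads in alg-2(ok304), 29.1 in wild type) and the fatty acid elongase gene elo-2 (0.878 and 52.7) lay just outside on this side. On the other side, M04B2.4 at 20.0, R193.2 at 20.0 and C52G5.2 at 20.1 lay just inside the wild-type minimum, and F25H2.16 at 19.8, Y49F6B.2 at 19.4, mboa-1 at 19.1, ZK1127.13 at 18.2 and far-5 at 17.5 just outside, each at 0 in alg-2(ok304). In the opposite direction, 351 genes were listed at 0 in wild type and at 20 or more fitted reads in alg-2(ok304), 6.19% of the genes outside the col genes.

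**Figure D2:**
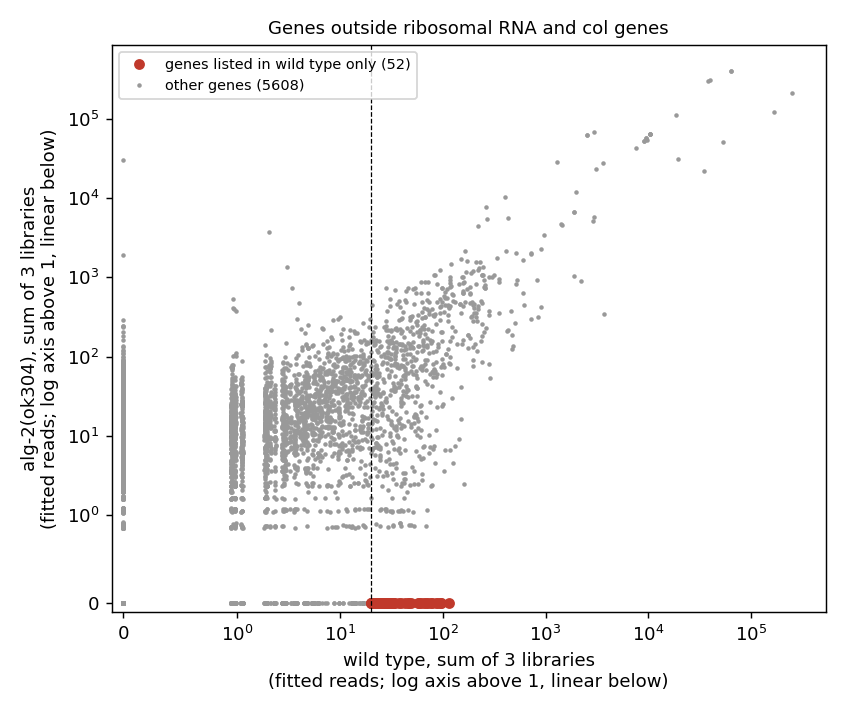
Sum of fitted reads over the alg-2(ok304) libraries (y axis) against that over the wild-type libraries (x axis) for genes outside ribosomal RNA and the col genes, on axes that are logarithmic above 1 and linear below, with a dashed line at the minimum of 20. The 52 genes lie at 0 on the y axis between 20.0 and 115.1 on the x axis, and grey points fill the space between 0.870 and 1249 above them.

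The gene with the highest level was F02E9.10 (WBGene00008533; chromosome I, 8427087 to 8429832 of WBcel235), which encodes a WD-repeat protein. It had 0 fitted reads in each alg-2(ok304) library, against 29.4, 41.1 and 44.6 in the wild-type libraries. F09F9.2 (WBGene00017307; chromosome X, 4110442 to 4111440), an uncharacterised protein-coding gene, had 0 in each alg-2(ok304) library, against 24.5, 34.2 and 37.2 in wild type. aars-2 (WBGene00000197; chromosome I, 3983183 to 3986581), the cytoplasmic alanyl-tRNA synthetase, had 0 in each alg-2(ok304) library and almost the same values as F09F9.2 in wild type, 24.5, 34.2 and 37.2. cec-3 (WBGene00011636; chromosome II, 7855810 to 7857600), a chromodomain protein that binds methylated histone, had 0 in each alg-2(ok304) library, against 23.2, 32.4 and 35.2 in wild type. The 3 wild-type values of each gene keep the fixed ratio of the library factors and are not separate measurements of its level. The rule alone sets the groups apart for the 52 genes, so this is not a result.

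**Figure D3:**
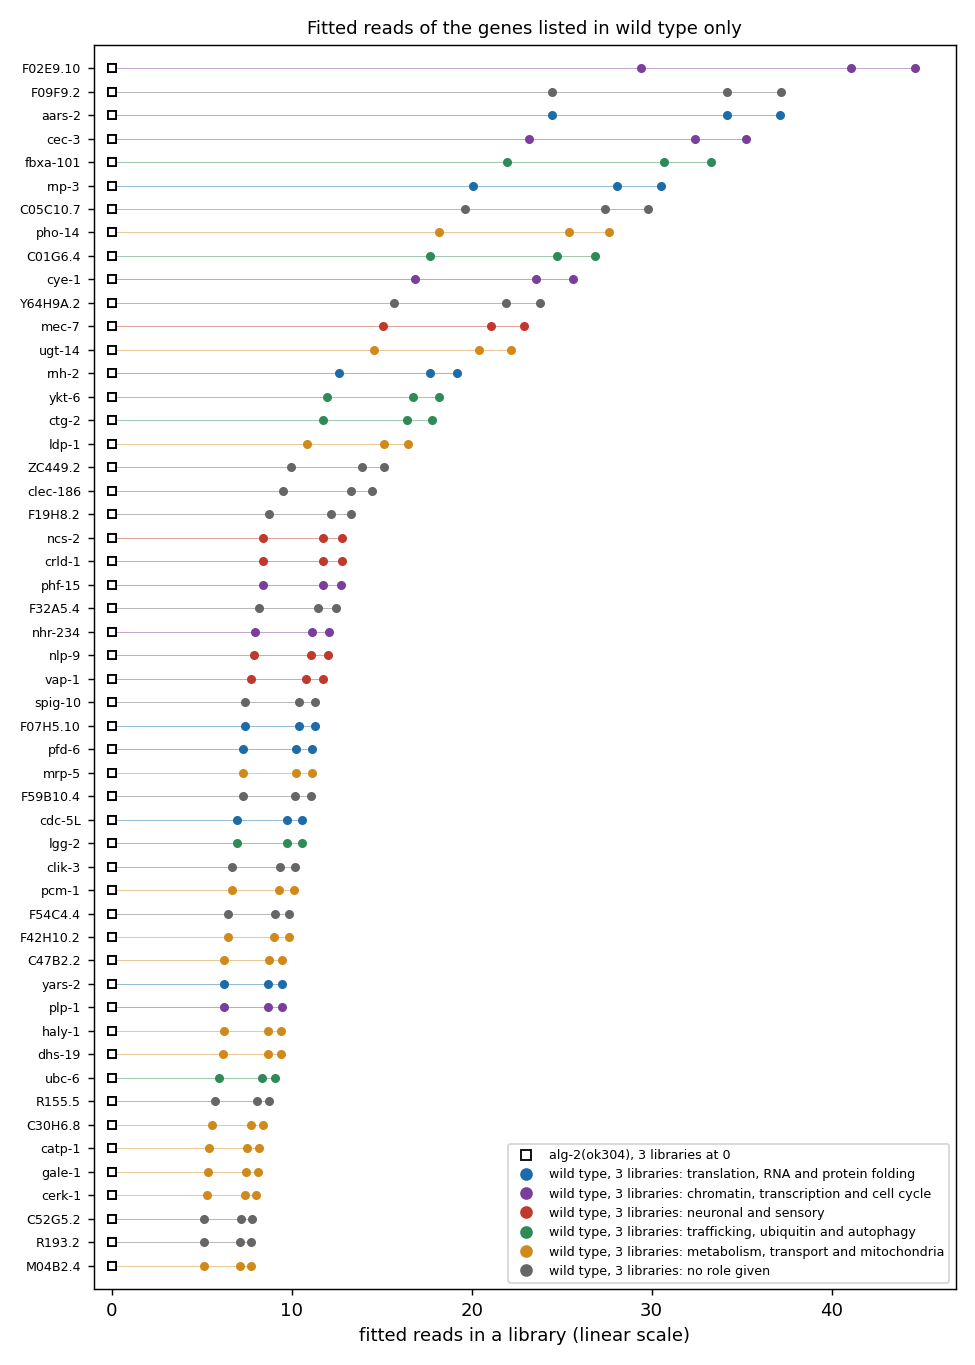
Fitted reads per library (x axis, linear) of the 52 genes, one per row, with open squares for the 3 alg-2(ok304) libraries, all at 0, and filled circles for the 3 wild-type libraries, coloured by the role of the gene. F02E9.10 stands highest, at 29.4 to 44.6 fitted reads in wild type, and M04B2.4 lowest, at 5.11 to 7.76.

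Long transcripts yield more reads than short ones at the same number of molecules, so levels were also set per kilobase of exon. On this scale F09F9.2 came first, with 147 wild-type fitted reads per kilobase over an exonic length of 653 bases. It was followed by C05C10.7 (107 per kilobase), rnp-3 (101.3), Y64H9A.2 (100.6) and F02E9.10 (76.5). aars-2, whose exons span 3126 bases, stood at rank 24 of 52 with 30.7 per kilobase, and mrp-5, catp-1 and R193.2 held the last ranks with 6.06, 5.74 and 3.38.

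Roles could be given to 38 of the genes, which were sorted into 5 groups, and 14 genes have a family name at most. The largest group, metabolism, transport and mitochondria, had 14 genes and 19.88% of the wild-type fitted reads of the 52. Translation, RNA and protein folding had 7 genes and 15.5% of the reads, chromatin, transcription and cell cycle 6 genes and 16.7%, and trafficking, ubiquitin and autophagy 6 genes and 13.9%. Genes of neuronal and sensory function were the smallest group, with 5 genes and 8.64%. Roles were not assigned outside the 52 genes, so the sizes of these groups are a description. The median wild-type sum was highest in the group of chromatin, transcription and cell cycle (49.5 fitted reads) and lowest in metabolism, transport and mitochondria (24.4). Of 31 lists of related genes, 17 held at least 1 of the 52 genes, and 19 of the genes stood in a list. These lists were chosen with earlier results of these data known, and some were small, such as RNase H2 with 2 genes listed. No gene of the Mediator, exocyst or peroxisome lists reached the wild-type minimum, so these lists could not hold any of the 52. Among all 5739 genes, 295 were above 0 in wild type alone, 1832 in alg-2(ok304) alone and 2659 in both groups. Counts of this kind within a list, given below, are to be read beside these numbers.

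Among neuronal and sensory genes, mec-7 had the highest level. It encodes a beta-tubulin of the thick microtubules of touch receptor neurons. mec-7 (WBGene00003171; chromosome X, 7774856 to 7776689) had 0 fitted reads in each alg-2(ok304) library, against 15.1, 21.1 and 22.9 in the wild-type libraries. Of 12 genes of touch receptor neurons, mec-7 and 3 others were listed. mec-17, which encodes a tubulin acetyltransferase of the same neurons, had 27.5 fitted reads in alg-2(ok304) and 1.85 in wild type, mec-6 had 11.8 and 0, and mec-9 was listed at 0 in both groups. Reads from other tubulin genes could be counted for mec-7 where sequences are near identical.
ncs-2, a neuronal calcium sensor, was listed at 0 in alg-2(ok304) and summed to 33.0 fitted reads in wild type. crld-1, an ER protein that in C. elegans helps to assemble acetylcholine receptors, was at 0 in alg-2(ok304) and 32.9 in wild type. The neuropeptide gene nlp-9 was at 0 in alg-2(ok304) and at 30.97 in wild type. Of the 27 neuropeptide genes listed, nlp-9 was the 1 gene at 0 in alg-2(ok304) and above 0 in wild type, 13 were above 0 in both groups, such as flp-8 (36.1 fitted reads in alg-2(ok304), 26.3 in wild type) and flp-12 (55.9 and 13.7), and 9 were above 0 in alg-2(ok304) alone. vap-1, a secreted protein known from the sheath glia of the amphid sense organ, was at 0 in alg-2(ok304) and 30.3 in wild type.

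In translation, the set held aars-2 and yars-2. Aminoacyl-tRNA synthetases charge tRNAs with their amino acids, and yars-2 is the mitochondrial enzyme for tyrosine. yars-2 (WBGene00006968; chromosome IV, 4710861 to 4712624) had 0 fitted reads in each alg-2(ok304) library, against 6.24, 8.72 and 9.47 in wild type. Of 35 synthetase genes 23 were listed, of which these 2 were above 0 in wild type alone, 11 were above 0 in both groups and 9 in alg-2(ok304) alone. A wild-type sum of 20 or more was reached by 5 of the 23. Besides aars-2 and yars-2 these were ears-1 (16.4 fitted reads in alg-2(ok304), 149 in wild type), sars-1 (7.48 and 65.9) and fars-1 (1.12 and 38.6). They were taken by a minimum on the wild-type level, so that their higher level in wild type follows in part from it. None of the other synthetase genes listed had more fitted reads in wild type, among them gars-1 (76.0 in alg-2(ok304), 4.33 in wild type) and cars-1 (47.9 and 3.74). Summed over the 23 genes, the list had 394 fitted reads in alg-2(ok304) and 401 in wild type.
Splicing factors held rnp-3, a protein of small nuclear ribonucleoproteins, and cdc-5L, a core protein of the spliceosome. rnp-3 (WBGene00004386; chromosome IV, 4174089 to 4176279) had 0 fitted reads in each alg-2(ok304) library, against 20.1, 28.1 and 30.5 in wild type. cdc-5L was at 0 in alg-2(ok304) and at 27.3 in wild type. Of 35 genes in this list 26 were listed, 5 of them in wild type alone. The other 3 had low levels, rsp-1 at 9.72, smu-2 at 5.19 and rsp-2 at 3.30 fitted reads in wild type. In both groups 10 genes were above 0, and in alg-2(ok304) alone 9.
rnh-2 encodes the catalytic subunit of RNase H2, which removes ribonucleotides from DNA. It had 0 fitted reads in each alg-2(ok304) library, against 12.7, 17.7 and 19.2 in wild type. ZK1127.13, the other gene listed for this enzyme, was also at 0 in alg-2(ok304) and had 18.2 in wild type, under the minimum. pfd-6, a subunit of the prefoldin chaperone that hands unfolded actin and tubulin to the chaperonin, was at 0 in alg-2(ok304) and 28.7 in wild type. Among the other prefoldin subunits listed, pfd-5 had 0 fitted reads in alg-2(ok304) and 6.15 in wild type, pfd-1 had 40.7 and 0.960, and pfd-4 had 7.73 and 0. F07H5.10, related to decapping exoribonucleases, was at 0 in alg-2(ok304) and 29.1 in wild type.

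Among genes of the nucleus, cye-1 followed F02E9.10 and cec-3. It encodes cyclin E, which drives entry into S phase. cye-1 (WBGene00000871; chromosome I, 6780799 to 6784397) had 0 fitted reads in each alg-2(ok304) library, against 16.9, 23.6 and 25.6 in wild type. Of 27 cell cycle genes 11 were listed, and cye-1 alone among them was above 0 only in wild type. The activator of the anaphase-promoting complex fzy-1 had 0.893 fitted reads in alg-2(ok304) and 32.7 in wild type, whereas mat-3, a subunit of that complex, had 23.2 and 7.83. phf-15, a PHD finger protein, was at 0 in alg-2(ok304) and 32.9 in wild type. The nuclear hormone receptor nhr-234 was at 0 in alg-2(ok304) and 31.2 in wild type, and plp-1, a nucleic acid binding protein of the Pur alpha family, was at 0 and 24.4. Of the 33 nuclear hormone receptor genes listed, 12 were above 0 in both groups and 15 in alg-2(ok304) alone.

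Genes of membrane traffic and protein turnover included a SNARE, an autophagy protein and parts of the ubiquitin system. ykt-6, a SNARE of the Golgi and of fusion with lysosomes, had 0 fitted reads in each alg-2(ok304) library, against 11.98, 16.7 and 18.2 in wild type. Of 31 genes of ER to Golgi and Golgi traffic 19 were listed. Of these, the SNARE nbet-1 had 1.11 fitted reads in alg-2(ok304) and 51.6 in wild type, and the COPI coat subunit copa-1 had 1.97 and 45.01. The golgin gene golg-4 had 91.3 in alg-2(ok304) and 53.6 in wild type, and the coat subunit copb-2 had 26.4 and 0.
lgg-2 encodes a homologue of the autophagosome protein LC3. It was at 0 in alg-2(ok304) and 27.2 fitted reads in wild type, the 1 gene of the 9 autophagy genes listed that had reads in wild type alone. Its paralogue lgg-1 had 47.7 fitted reads in alg-2(ok304) and 2.12 in wild type, and the kinase unc-51 had 43.3 and 1.90. fbxa-101, an F-box protein, had 0 fitted reads in each alg-2(ok304) library, against 21.95, 30.7 and 33.3 in wild type. C01G6.4, a RING finger protein, was at 0 in alg-2(ok304) and 69.3 in wild type, ctg-2, a lipid transfer protein with a GOLD domain, at 0 and 45.9, and ubc-6, a ubiquitin conjugating enzyme, at 0 and 23.5. Of the 12 ubiquitin conjugating enzymes listed, 4 were above 0 in both groups and 6 in alg-2(ok304) alone.

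The metabolic genes were led by pho-14 and ugt-14. pho-14, an acid phosphatase, had 0 fitted reads in each alg-2(ok304) library, against 18.2, 25.4 and 27.6 in wild type. Of the 6 acid phosphatases listed, pho-11 had 11.98 fitted reads in alg-2(ok304) and 85.3 in wild type, and pho-4 had 27.5 and 1.12. ugt-14, a UDP-glucuronosyltransferase, had 0 in each alg-2(ok304) library, against 14.6, 20.4 and 22.2 in wild type. Of the 15 genes of this family listed, ugt-22 had 20.2 fitted reads in alg-2(ok304) and 61.8 in wild type, and ugt-8 had 53.7 and 0. ldp-1, a protein of lipid droplets, was at 0 in alg-2(ok304) and 42.5 in wild type.
Transporters were mrp-5, an ABC transporter that exports heme from the intestine (0 fitted reads in alg-2(ok304), 28.6 in wild type), and catp-1, a cation transporting ATPase (0 and 21.1). F42H10.2, related to the import receptor of the mitochondrial intermembrane space, had 0 and 25.4, and M04B2.4, related to an assembly factor of respiratory complex I, had 0 and 20.0. haly-1, histidine ammonia-lyase, the first enzyme of histidine breakdown, had 0 fitted reads in alg-2(ok304) and 24.3 in wild type. The short-chain dehydrogenase dhs-19 had 0 and 24.3, and of the 13 dhs genes listed, dhs-25 had 98.8 in alg-2(ok304) and 0 in wild type. The sugar epimerase gale-1 (0 and 20.9), the ceramide kinase cerk-1 (0 and 20.7) and the protein repair methyltransferase pcm-1 (0 and 26.1) stood near the minimum. C47B2.2, related to uracil phosphoribosyltransferase, had 0 and 24.4, and C30H6.8, related to nucleoredoxin, had 0 and 21.7.

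The 14 other genes ran from 20.0 fitted reads in wild type for R193.2 to 95.8 for F09F9.2. C05C10.7 had 76.8 and Y64H9A.2 had 61.3 in wild type, with 0 in alg-2(ok304). clec-186, with a C-type lectin domain, had 0 fitted reads in alg-2(ok304), against 37.2 in wild type. Of the 36 C-type lectin genes listed, clec-1 had 2.48 fitted reads in alg-2(ok304) and 160 in wild type, clec-5 had 2.50 and 52.6, and clec-180 had 375 and 73.3. clik-3, a calponin-like protein, had 0 and 26.2. The wild-type sums were 39.0 for ZC449.2, 34.2 for F19H8.2, 32.1 for F32A5.4, 29.1 for spig-10, 28.6 for F59B10.4, 25.4 for F54C4.4 and 22.6 for R155.5, each with 0 in alg-2(ok304). The median exonic length was 832.5 bases over the 14 genes and 1277 bases over all 52.
For large complexes, few genes reached the wild-type minimum apart from the cytoplasmic ribosomal proteins, of which 65 of the 78 listed did and none was at 0 in alg-2(ok304). Of the 40 mitochondrial ribosomal protein genes listed 2 reached it, of the 31 proteasome genes 5 and of the 19 V-ATPase genes 3, and none of these was among the 52, so that at 6.91% of genes above the minimum nothing can be read from their absence. Genes close to the rule were rpt-3, an ATPase of the proteasome, with 0.890 fitted reads in alg-2(ok304) and 49.3 in wild type, and unc-32, a subunit of the V-ATPase, with 1.16 and 70.0. Summed over the genes listed, the proteasome had 389 fitted reads in alg-2(ok304) and 185 in wild type, and the V-ATPase 486 and 200. The 7 neuronal markers listed had at most 5.81 fitted reads in wild type (unc-13) and could not enter the set.

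Properties that the rule did not use were compared with the 524 genes of the same wild-type range that were above 0 in both groups. All 52 genes were protein-coding, against 94.5% of the 524. Their median exonic length was 1277 bases (quartiles 953 and 1528), against 1484 bases (quartiles 840 and 2610). The difference in the medians was small, and the spread was narrower among the 52 genes, of which 8 exceeded 2000 bases. The median number of separate exon blocks was 6 among the 52 genes and 5 among the 524. On the genome, 24 of the 52 genes lay on the plus strand and 28 on the minus strand.

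**Figure D4:**
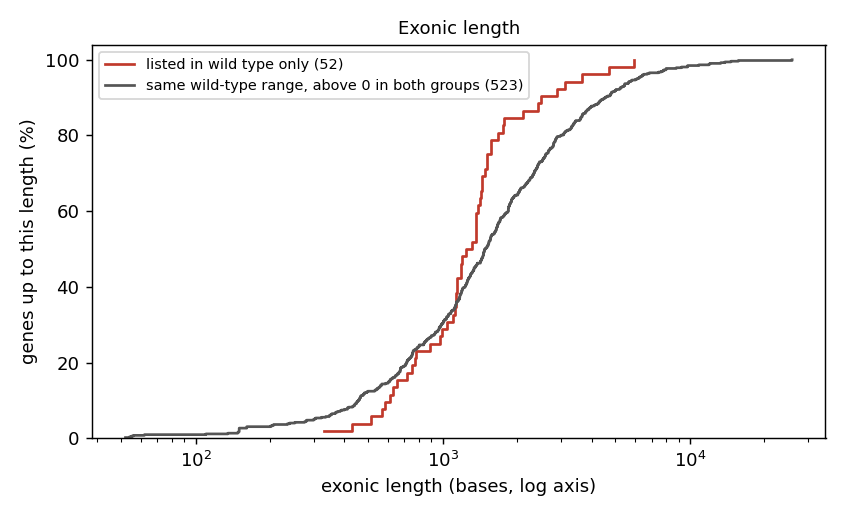
Cumulative share of genes (y axis) up to a given exonic length (x axis, log scale) for the 52 genes and for the 523 genes of the same wild-type range that were above 0 in both groups and have an annotated exonic length. The curve of the 52 genes is the steeper, with medians of 1277 and 1484 bases.

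By chromosome, 12 of the 52 genes lay on each of chromosomes I and II, or 23.1% each, 9 on X (17.3%), 8 on IV (15.4%), 6 on V (11.5%) and 5 on III (9.62%). Among the 524 genes the shares were 20.0% on I, 14.3% on II, 13.9% on X, 15.1% on IV, 17.4% on V and 17.6% on III. Chromosome II held a larger and chromosome III a smaller share of the 52 genes than of the 524. With 52 genes chosen on their level, these shares are a description.

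**Figure D5:**
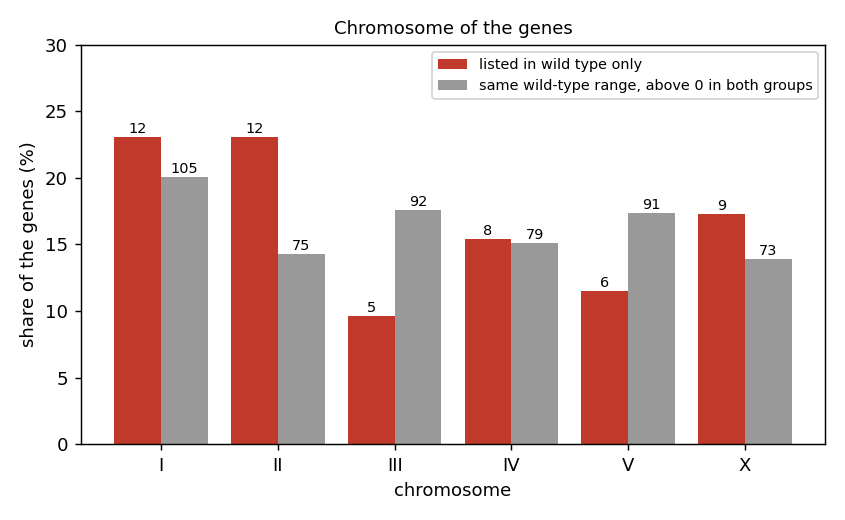
Share of genes on each chromosome (y axis, percent of the set) for the 52 genes and for the 524 genes of the same wild-type range above 0 in both groups, with the number of genes over each bar. Chromosome II held 23.1% against 14.3%, and chromosome III 9.62% against 17.6%.

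Some of the genes lay close together. ctg-2 and rnh-2 are neighbours on the same strand of chromosome II, 227 bases apart, and had like wild-type levels of 45.9 and 49.5 fitted reads with 0 in alg-2(ok304). On chromosome I, fbxa-101, C47B2.2 and gale-1 lay within 20148 bases (12958640 to 12978787 of WBcel235). Of the 8 protein-coding genes inside this span, 5 were listed, and the remaining listed genes were the proteasome subunit gene pbs-2, with 17.05 fitted reads in alg-2(ok304) and 0 in wild type, and the tubulin gene tba-2, with 34.2 and 21.3. ZC449.2 and Y64H9A.2 lay 19717 bases apart on chromosome X. In total, 4 pairs of successive genes of the set were less than 25 kb apart. Such pairs were not counted among other genes, so this number is a description.
Overlap with another listed gene was found for 5 of the 52, each on the opposite strand, and the methods name no strand for the counting. F09F9.2 shares 94 exonic bases with R02E4.2, which had 0.860 fitted reads in alg-2(ok304) and 13.97 in wild type. pcm-1 shares 84 exonic bases with mcp-1, which had 0 and 14.02. ncs-2 shares no exonic base with ercc-1, which it overlaps and which had 9.85 fitted reads in alg-2(ok304) and 35.6 in wild type. F19H8.2 shares none with tps-2, which had 102 and 34.3, and catp-1 none with Y105E8A.27, listed at 0 in both groups. How far shared reads enter the levels of F09F9.2 and pcm-1 was not tested.

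Wild-type levels often coincided between genes. Of the 52 genes, 22 had a wild-type sum within 0.1 fitted reads of another of the genes. Of these, C47B2.2, yars-2, plp-1, haly-1 and dhs-19 lay between 24.3 and 24.4, and F09F9.2 and aars-2 both stood at 95.8. Genes of the same wild-type range that were above 0 in both groups had like sums, such as gst-26 at 24.33, rpn-7 at 24.34 and rpn-13 at 24.37. The same count was not made for those genes, so coinciding levels cannot be called a trait of the 52. The smallest wild-type sum above 0 in the table was 0.942. How many libraries contributed reads to each of these levels cannot be told apart from the fitted values.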

How the data were processed

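Per the labels and the methods of the study, RNA bound to tagged neuronal ribosomes was sequenced in 3 libraries of alg-2(ok304) and 3 of wild type. Paired reads were trimmed by the authors (cutadapt 2.10) and mapped with HISAT2 to the WBcel235 genome. The authors then assigned them to genes of Ensembl release 96 by featureCounts (Subread 2.0.0) and modelled the counts in edgeR (3.11). The deposited table has a column of fitted reads per library, which are not counts, and the authors' own average log2 CPM, p-values and FDR for the contrast, of which none was used. Its title names a filter of 1 CPM in at least 2 libraries, yet 953 genes were at 0 in both groups. The alg-2(ok304) columns were assigned by strain number (1000), since their headers name alg-1. The count test planned for read counts was not run, since fitted values have no spread between libraries.

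The 52 genes and the gene lists were chosen with earlier results of these data known. Sums over the 3 libraries of a group, shares, medians and levels per kilobase of exon were computed with Python 3.11.15, numpy 2.4.6 and pandas 2.3.3. The code of the rule was run on simulated data with genes planted to meet it, which checks the code and not the 52 genes. Positions and exons came from Ensembl release 115 of WBcel235, in which 5733 of 5739 identifiers had an entry. Genes named were the 25 with the largest wild-type sum, those in a list, the 5 on either side of the minimum, and alg-2. The remaining genes and the genes that complete a group were named after their values were seen. Read depth is unknown for fitted values, and no error could be attached to a level. Alternatives were other minimum levels and other scales between the groups.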

Additional observations from a re-analysis of the deposited data

How the results depend on the processing

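The number of genes listed in wild type only was 52. It was 83 with a minimum wild-type sum of 10, 13 with a minimum of 50, and 96 when the wild-type columns were scaled to the alg-2(ok304) total outside ribosomal RNA. It was 64 when alg-2(ok304) sums under 1 were also taken and 54 with the col genes kept. Counting overlapping genes of the set once per locus and weighting the libraries equally could not change the number, since none of the 52 overlap one another and the columns of a group are proportional. The number of genes listed in alg-2(ok304) only was 351, and was 43 with the alg-2(ok304) columns scaled to the wild-type total outside ribosomal RNA and 809 with the total of all genes as the scale, so that the balance between both sets depends on the scale. Among the 13 genes at 50 or more, the share on chromosome III was 0%, against 9.62% of the 52. It was 30.8% on each of chromosomes I and II (23.1% of the 52), 7.69% on IV (15.4%), 7.69% on V (11.5%) and 23.1% on X (17.3%). Of these 13 genes 100% were protein-coding, and their median exonic length was 1369 bases, against 1277. No paired analysis was possible because the columns hold fitted values without variation between replicates, and leaving out each library in turn could not be run for the same reason.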

Other observations

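Below the minimum, another 31 genes outside the col genes were listed at 0 in alg-2(ok304) and at 10 to 20 fitted reads in wild type. They included further organelle and regulatory genes, with 16.6 fitted reads in wild type for the mitochondrial ribosomal protein gene mrps-18.C, 15.7 for the Mediator subunit gene mdt-22, 13.999 for the sirtuin gene sir-2.2, 13.97 for the peroxisome assembly gene prx-3 and 13.1 for rbx-2, which encodes a RING protein of cullin ligases. sri-36, a chemoreceptor gene, had 15.7 in wild type. These genes were named after their values were seen.

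The non-coding RNA F09F9.12 lies 14 bases from F09F9.2 on the opposite strand and had 0 fitted reads in alg-2(ok304) and 13.1 in wild type. With mcp-1, which overlaps pcm-1, it was 1 of 2 of these 31 genes within 2 kb of a gene of the set.

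The col genes left out by the rule that would have met it were col-153, with 0 fitted reads in alg-2(ok304) and 258 in wild type, and col-115, with 0 and 40.7.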
